A study of Homo sapiens with 18 samples.

Results

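A set of 9 genes of the urea cycle and of amino acid catabolism were followed on 18 microarrays: CPS1, OTC, ASS1, ASL, ARG1, TAT, HPD, TDO2 and GLS2. They were taken as a list of liver enzymes, and every probe whose RefSeq accession belonged to one of them was used, which gave 11 of the 42327 probes kept on the arrays and 9 of 19720 named genes. ASS1 and ARG1 had 2 probes each and the other genes 1. The arrays held RNA of EpCAM+ cells sorted from 2 established hepatocellular carcinoma lines, Huh1 and Huh7. In each line 3 samples were untreated controls, 3 had been exposed to 0.1 µM disulfiram (DSF), an aldehyde dehydrogenase inhibitor used against alcoholism, and 3 to 1 µM 5-fluorouracil (5-FU), an antimetabolite, for 48 hours. The study's methods list DSF together with copper chloride, the vehicle of the controls was not given in the sources used here, and all 6 groups came from the same EpCAM+ gate on cultured lines. On GRCh38.p14, CPS1 lies on chromosome 2, TDO2 on 4, ARG1 on 6, ASL on 7, ASS1 on 9, HPD and GLS2 on 12, TAT on 16 and OTC on X.

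The urea cycle is the route by which liver turns ammonia into urea. CPS1 and OTC carry out its mitochondrial steps, making carbamoyl phosphate and then citrulline, and ASS1, ASL and ARG1 carry out the cytosolic steps that end in urea and ornithine. TAT and HPD open the breakdown of tyrosine, TDO2 opens that of tryptophan along the kynurenine route, and GLS2 is the liver-type glutaminase, which releases ammonia from glutamine. Expression of these enzymes is a hallmark of mature hepatocytes, and hepatocellular carcinomas are known to lose part of it.

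Levels are given as the log2 processed intensity of a probe minus the 75th percentile of its own array, so that 0 is the 75th percentile and 1 unit is a doubling. Between 59.9% and 71.1% of probes were well above background per array, replicates of a group correlated with r between 0.989 and 0.997 across probes, and no spot was saturated. Levels of different genes come from different probes and were not set against each other. The exception is the sums of marker levels below, which add different probes, weigh the brightest most and serve to compare groups. Differences were tested with limma on the 29894 probes that stood well above background throughout 1 or more of the groups, with Benjamini-Hochberg adjustment, and a difference was called at an adjusted p below 0.05. All 9 genes passed the filter on low values. In these sorted populations fewer cells with a transcript and less transcript per cell cannot be told apart. Of 8 hepatocyte marker genes, including ALB, TTR and APOA1, all 8 were well above background on at least 1 array of each of the 6 groups, and so was EPCAM, the sorting marker.

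After DSF, all 5 urea cycle genes were called lower in Huh1, and 4 of the 5 in Huh7, where CPS1 was the exception. In Huh1 these were the only calls among the 9 genes, 5 of 9, against 44.2% of all probes called in either direction and 20.3% called lower. In Huh7 the count was 7 of 9 against 46.7% of all probes, and CPS1, TAT and HPD were called higher. Of all probes 27.3% were called higher there and 19.4% lower. After 5-FU, 6 of 9 genes were called in Huh1, against 48.2% of all probes, and 5 of 9 in Huh7, against 57.1%. The Huh1 5-FU calls were lower for CPS1, ASS1, ASL and HPD and higher for TDO2 and GLS2, and the Huh7 5-FU calls were lower for ASS1 and ARG1 and higher for CPS1, TAT and TDO2. The Huh7 5-FU share is near that of all probes. The median change of the urea cycle genes was -1.50 after DSF in Huh1 and -0.70 in Huh7, on the log2 scale, beside medians of 0.0023 and 0.08 over all probes tested. For 5-FU it was -0.59 and -0.09, beside -0.03 and -0.05.

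**Figure D1:**
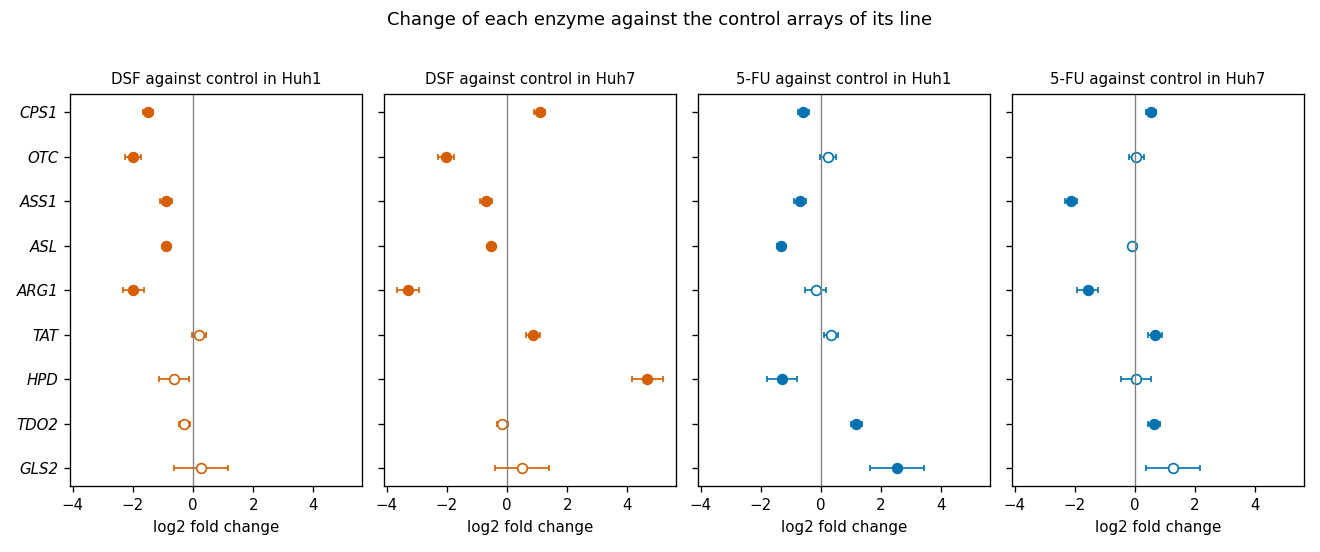
Log2 fold change against the control arrays of the same line (x axis) for the 9 genes (y axis), in 4 panels for DSF and 5-FU in Huh1 and Huh7. Points are limma estimates from 3 arrays against 3, bars are standard errors, and filled points had an adjusted p below 0.05. CPS1 and HPD lie on opposite sides of 0 in the panels for DSF, while OTC and ARG1 lie to the left in both.

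The 5-FU values depend on how arrays are put on a common scale. With the 7 spike-in probes of mean log2 signal above 8 as the reference, the median of all probes moved to 0.80 after 5-FU in Huh1 and to 0.93 in Huh7, and 98.4% and 95.6% of the calls were then higher, against 46.1% and 47.9% with the 75th percentile. Each 5-FU change given here is thus a change against most probes of its array. On the spike-in scale CPS1 and ASS1 turned to 0.25 and 0.12 in Huh1 and ASL to 0.89 in Huh7. For DSF the share of calls that were higher was 54.1% in Huh1 and ranged from 33% with median scaling to 75% with spike-in scaling, and in Huh7 it was 58.5% and fell to 34.5% with spike-in scaling. No DSF call among the 9 genes changed sign under these scalings.

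OTC, which joins carbamoyl phosphate to ornithine, fell 4.01-fold after DSF in Huh1 and 4.06-fold in Huh7. In Huh1 its log2 levels were 0.82, 1.25 and 1.21 in the controls and -0.87, -0.96 and -0.90 after DSF. In Huh7 they were -0.57, -0.62 and -0.52 in the controls and -2.47, -2.63 and -2.67 after DSF. The groups did not overlap in either line, as for 59.1% and 60.5% of all probes. The log2 change was -2.00 in Huh1 (SE 0.26, adjusted p = 2.3e-05). The Huh7 value was nearly the same at -2.02 (SE 0.26, adjusted p = 2.33e-05), and the difference between the lines was -0.02 (SE 0.36, adjusted p = 0.977). Exposure to 5-FU gave levels of 2.15, 0.88 and 0.94 in Huh1, and in Huh7 the arrays read -0.69, -0.17 and -0.70. The 5-FU arrays lay around the controls, with Huh1 replicate 1 the highest of all, and neither change was called (0.23, adjusted p = 0.497, and 0.05, adjusted p = 0.883). Without that replicate the Huh1 value was -0.18, and without replicate 2 of the Huh7 5-FU arrays the Huh7 value was -0.12.

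ARG1, the arginase that releases urea, fell further in Huh7 than any other of the 9 genes. Its first probe read 0.41, 0.81 and 0.88 in Huh1 controls and -1.29, -1.27 and -1.31 after DSF. In Huh7 it read 1.34, 1.24 and 1.26 in the controls and -1.83, -2.06 and -2.16 after DSF. In both lines the DSF arrays lay close together and below every control array, while 59.1% and 60.5% of all probes had no overlap in these comparisons. The falls were 3.97-fold in Huh1 (log2 -1.99, SE 0.35, adjusted p = 0.000372) and 9.82-fold in Huh7 (log2 -3.30, SE 0.35, adjusted p = 4.99e-06). The second ARG1 probe gave -1.89 and -3.05, both called. The difference between the lines was -1.31 (SE 0.50) and missed the threshold (adjusted p = 0.0512). After 5-FU the first probe read 1.46, 0.07 and 0.05 in Huh1, where replicate 1 lay above all controls and the other arrays below them, and -1.13, 0.18 and 0.09 in Huh7, all below the controls, a separation that 66.3% of all probes showed in this comparison. The change was called in Huh7 (log2 -1.57, SE 0.35, adjusted p = 0.00163) but not in Huh1 (-0.17, SE 0.35, adjusted p = 0.723), where the second probe gave 0.12 and the first 0.06 without 5-FU replicate 2 or 3. With spike-in scaling the Huh7 change was -0.58 (adjusted p = 0.113).

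OTC and ARG1 had the largest falls of the 9 genes after DSF in both lines. The 250 bases before their RefSeq starts are shown for that reason (GRCh38.p14, plus strand, chrX:38352354-38352603 and chr6:131572976-131573225, read 5' to 3'). Capitals mark matches, on either strand, to 5 patterns, none of which overlapped another here: TATAAA (the TATA box), AAAGTCC (a core of HNF4 sites), TTGCNNAA (a C/EBP core), AGAACA (a glucocorticoid receptor half-site) and TGACG (a cAMP response half-site).
OTC: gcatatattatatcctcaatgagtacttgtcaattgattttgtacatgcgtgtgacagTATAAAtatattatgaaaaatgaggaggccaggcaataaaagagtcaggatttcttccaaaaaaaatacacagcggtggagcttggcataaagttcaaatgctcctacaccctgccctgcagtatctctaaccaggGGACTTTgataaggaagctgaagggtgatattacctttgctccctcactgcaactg
ARG1: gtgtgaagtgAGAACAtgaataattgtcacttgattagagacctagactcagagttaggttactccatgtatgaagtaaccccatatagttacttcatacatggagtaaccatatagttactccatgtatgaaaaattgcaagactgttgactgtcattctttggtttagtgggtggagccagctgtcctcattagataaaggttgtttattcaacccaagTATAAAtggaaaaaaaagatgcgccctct
OTC held TATAAA starting 192 bases and the reverse complement of AAAGTCC starting 56 bases before the start, and ARG1 held TATAAA at 29 and AGAACA at 240 bases. ASS1 and ASL, also called lower after DSF in both lines, are not shown. ASS1 held no match to any of the 5 patterns, and ASL held only TGACG, at 31 bases. Of the 8 genes with an entry, all but TAT, 3 held TATAAA, 1 AAAGTCC, 0 TTGCNNAA, 2 AGAACA and 2 TGACG. The shares among 27305 promoters of this length were 11.4%, 3.35%, 9.36%, 12.7% and 21.1%. These are matches of letters and were not tested for binding.

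ASS1 and ASL, which make and split argininosuccinate, fell less after DSF. The main ASS1 probe read 3.90, 4.46 and 4.40 in Huh1 controls, 3.36, 3.36 and 3.38 after DSF and 4.06, 3.30 and 3.27 after 5-FU. In Huh7 it read 3.40, 3.36 and 3.35 in controls, 2.63, 2.73 and 2.67 after DSF and 0.92, 1.24 and 1.56 after 5-FU. The lowest ASS1 arrays were thus the Huh7 5-FU ones. The log2 changes after DSF were -0.89 in Huh1 (SE 0.20, adjusted p = 0.00236) and -0.70 in Huh7 (SE 0.20, adjusted p = 0.0112), with -1.01 and -0.93 from the second probe. The Huh7 call was lost with slide as a block (adjusted p = 0.0923). After 5-FU ASS1 fell 4.38-fold in Huh7 (log2 -2.13, SE 0.20, adjusted p = 5.36e-07) and 1.64-fold in Huh1 (log2 -0.71, adjusted p = 0.00931), where replicate 1 lay among the controls and a fit of only the groups compared lost the call (adjusted p = 0.0834). The second probe gave -1.97 and -0.62. The 5-FU changes of ASS1 differed between the lines by -1.42 (SE 0.28, adjusted p = 0.00136).

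Under 5-FU ASL fell in Huh1, the line in which ASS1 changed less. It read 3.62, 3.71 and 3.66 in Huh1 controls, 2.72, 2.75 and 2.85 after DSF and 2.63, 2.15 and 2.17 after 5-FU. In Huh7 it read 2.61, 2.59 and 2.60 in controls, 2.09, 2.06 and 2.09 after DSF and 2.32, 2.70 and 2.52 after 5-FU. Treated Huh1 arrays lay below all Huh1 controls with either drug, where 59.1% of all probes had no overlap for DSF and 56.2% for 5-FU. The Huh7 5-FU arrays lay on both sides of the Huh7 controls. The log2 change after DSF was -0.89 in Huh1 (SE 0.11, adjusted p = 2.06e-05) and -0.52 in Huh7 (SE 0.11, adjusted p = 0.00179). The 5-FU change was -1.34 in Huh1 (SE 0.11, adjusted p = 5.23e-07) and -0.09 in Huh7 (SE 0.11, adjusted p = 0.53), and these differed by 1.25 (SE 0.16, adjusted p = 3.84e-05).

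CPS1, the enzyme that commits ammonia to the cycle, had the widest gap between the lines of the urea cycle genes and moved in opposite directions. Its Huh1 levels were 5.35, 5.01 and 5.11 in controls, 3.65, 3.63 and 3.69 after DSF and 5.01, 4.34 and 4.36 after 5-FU. Its Huh7 levels were -3.40, -3.30 and -3.41 in controls, -2.20, -2.30 and -2.37 after DSF and -3.14, -2.90 and -2.48 after 5-FU, all well above background. Treated Huh1 arrays lay at or below the lowest Huh1 control and treated Huh7 arrays above every Huh7 control. Of all probes 59.1% in Huh1 and 60.5% in Huh7 had no overlap for DSF, and 56.2% and 66.3% for 5-FU. With DSF CPS1 fell 2.82-fold in Huh1 (log2 -1.50, SE 0.17, adjusted p = 9.12e-06) and rose 2.12-fold in Huh7 (log2 1.08, SE 0.17, adjusted p = 0.000173), a difference of 2.58 (SE 0.25, adjusted p = 3.03e-06) between the lines. With 5-FU the changes were -0.59 (SE 0.17, adjusted p = 0.0124) and 0.53 (SE 0.17, adjusted p = 0.0171), a difference of 1.12 (SE 0.25, adjusted p = 0.00265). The Huh1 5-FU call was lost without control replicate 1 (-0.49, adjusted p = 0.0524) or 5-FU replicate 2 (-0.47, adjusted p = 0.0617) or 3 (-0.48, adjusted p = 0.06), and the Huh7 one without 5-FU replicate 3 (0.35, adjusted p = 0.0919). Quantile scaling (-0.43, adjusted p = 0.0618) and a fit of only the groups compared (adjusted p = 0.0725) also ended the Huh1 call, and normexp correction the Huh7 one (0.24, adjusted p = 0.157). With spike-in scaling the Huh1 5-FU value turned to 0.25, so the opposite directions then held for DSF only. In the controls CPS1 was 368-fold lower in Huh7 than in Huh1 (log2 -8.52, SE 0.17, adjusted p = 8.1e-15), so the rise in Huh7 left it at -2.29 on average, against 3.66 in Huh1 after DSF.

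**Figure D2:**
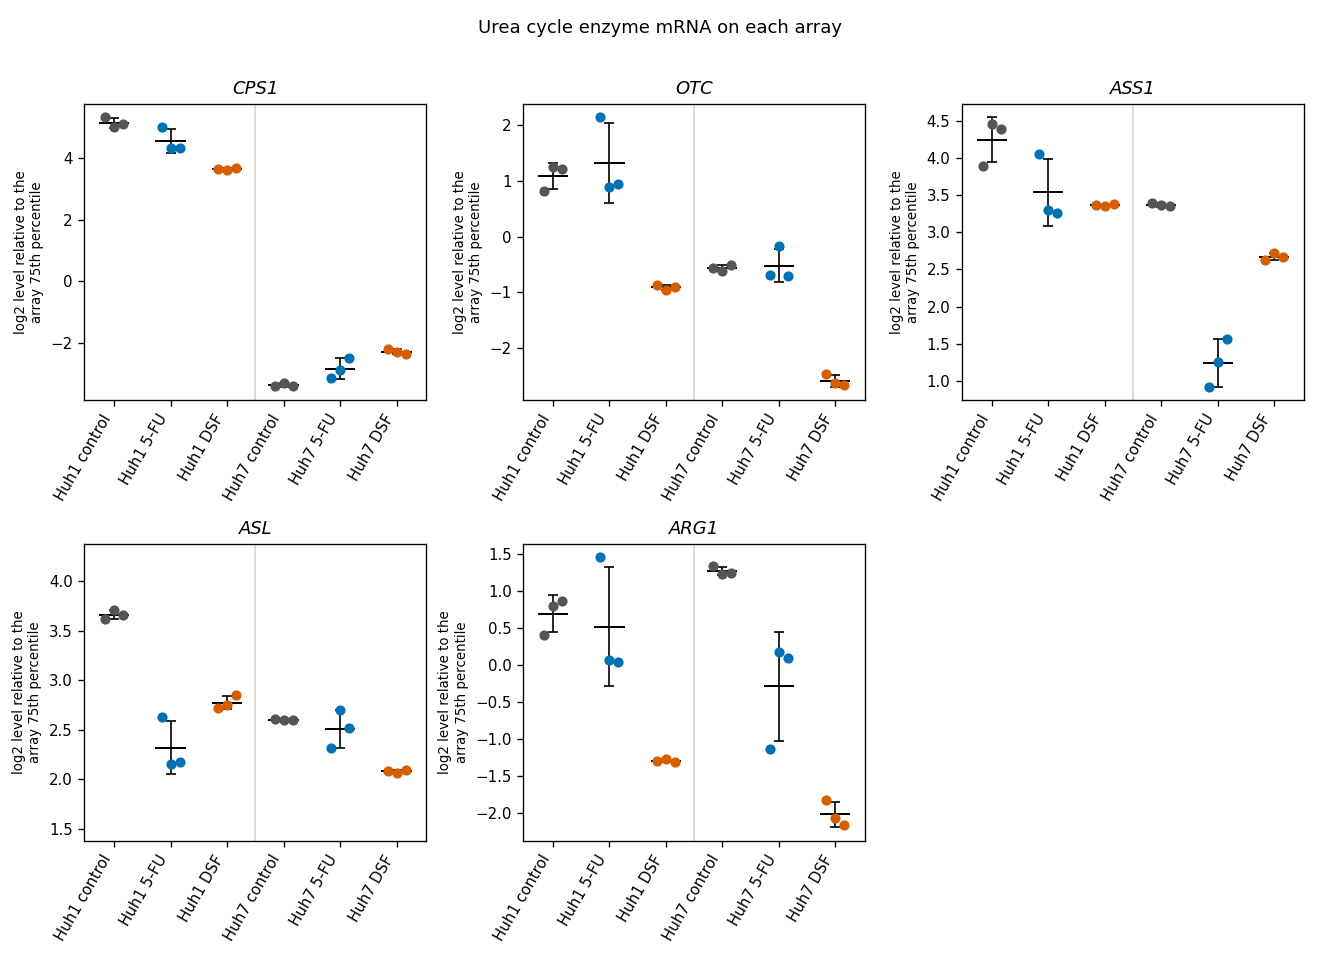
Log2 level relative to the 75th percentile of the array (y axis, a separate range for each gene) on every array of the 6 groups (x axis) for CPS1, OTC, ASS1, ASL and ARG1. Points are arrays in the order of their replicate numbers, horizontal lines are means and bars are SD over 3 arrays. The DSF arrays lie below the controls of the same line for each gene but CPS1 in Huh7.

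HPD, the dioxygenase that acts after TAT in tyrosine breakdown, rose after DSF in Huh7 from low levels. The 250 bases before its start are shown because it had the largest change of the 9 genes (GRCh38.p14, minus strand, chr12:121858860-121859109, read 5' to 3' on the strand of the gene), with its only match, to the reverse complement of TGACG and starting 186 bases before the start, in capitals.
HPD: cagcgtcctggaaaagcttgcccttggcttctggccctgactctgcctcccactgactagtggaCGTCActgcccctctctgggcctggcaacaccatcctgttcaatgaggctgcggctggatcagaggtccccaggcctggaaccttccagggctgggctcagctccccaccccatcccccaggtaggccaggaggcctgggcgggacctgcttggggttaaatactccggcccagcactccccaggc
HPD levels in Huh7 were -5.90, -3.03 and -5.48 in controls, -0.12, -0.22 and -0.06 after DSF and -4.42, -5.12 and -4.78 after 5-FU. The DSF arrays lay far above all others of the line, where 60.5% of all probes had no overlap between DSF and control. Replicate 2 of the Huh7 controls stood apart, and the 2 spots of the probe read 15.4 and 1200 intensity units there, a 78.2-fold gap, while they agreed within 2.09-fold on the other 17 arrays and were not marked as outliers by the scanner software. The rise was 25.4-fold over all arrays (log2 4.67, SE 0.51, adjusted p = 5.34e-06), and 5.56 on the log2 scale (SE 0.19, adjusted p = 3.19e-10) when that array was dropped for this probe. On the slide that held all controls and 1 DSF array the difference was 4.68. With normexp background correction it was 3.07 (adjusted p = 2.62e-06) over all arrays.

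In Huh1, HPD read 4.64, 4.92 and 4.84 in controls, 4.18, 4.15 and 4.17 after DSF and 3.82, 3.32 and 3.38 after 5-FU. Both drugs left every treated array below the controls, while 59.1% of all probes had no overlap for DSF and 56.2% for 5-FU in this line. The DSF change of -0.64 (SE 0.51) was not called over all arrays (adjusted p = 0.333) and was called once the discordant Huh7 array was dropped (SE 0.17, adjusted p = 0.0081), since the 6 groups share 1 estimate of the spread. The 5-FU change of -1.29 had an adjusted p of 0.0477 with that array and 4.16e-05 without it. With it, leaving out any 1 of the Huh1 control or 5-FU arrays ended the call (-1.45 to -1.20, adjusted p from 0.0537 to 0.119), and so did quantile scaling (-1.19, adjusted p = 0.0693), spike-in scaling (-0.46, adjusted p = 0.393), no filter on dim probes (adjusted p = 0.0553), the replicate block (adjusted p = 0.0613) and slide as a block (adjusted p = 0.0692). In Huh7 the 5-FU change was 0.03 (SE 0.51, adjusted p = 0.965) with it and 0.92 (SE 0.19, adjusted p = 0.00105) without it. The DSF effects of the lines differed by 5.31 (SE 0.71, adjusted p = 5.74e-05), or 6.20 without the array. In the controls HPD was 779-fold lower in Huh7 (log2 -9.61, SE 0.51, adjusted p = 2.76e-10), or -10.49 without it and -7.92 with normexp correction.

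TAT, the aminotransferase of tyrosine, was dim throughout. It read -4.71, -4.51 and -4.69 in Huh1 controls, -4.32, -4.62 and -4.42 after DSF and -4.27, -4.32 and -4.32 after 5-FU. In Huh7 it read -5.67, -6.02 and -6.37 in controls, -5.76, -4.84 and -4.82 after DSF and -5.70, -5.25 and -5.08 after 5-FU, with 1 control array and 1 5-FU array not well above background. Huh7 DSF replicate 1 lay among the controls, and the other DSF arrays, which alone were on the third slide, lay above them. The Huh7 changes of 0.88 after DSF (SE 0.23, adjusted p = 0.00709) and 0.68 after 5-FU (SE 0.23, adjusted p = 0.0231) were called, but the former was 0.26 with slide as a block (adjusted p = 0.504) and within the slide that held the controls. With normexp background correction it was also lost, and the 5-FU value turned to -0.15. Leaving out Huh7 control replicate 2 or 3 or 5-FU replicate 2 or 3 also ended the 5-FU call (0.50 to 0.67, adjusted p from 0.0515 to 0.108). Neither was called when only the groups compared were fitted (adjusted p = 0.0684 after DSF and 0.0521 after 5-FU). The Huh1 changes were 0.19 (adjusted p = 0.559) and 0.33 (adjusted p = 0.266).

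TDO2, the first enzyme of tryptophan breakdown, rose with 5-FU in both lines. Its Huh1 levels were -1.83, -1.90 and -1.91 in controls, -0.87, -0.64 and -0.60 after 5-FU and -2.17, -2.15 and -2.20 after DSF. Its Huh7 levels were -0.44, -0.46 and -0.41 in controls, -0.38, 0.24 and 0.73 after 5-FU and -0.49, -0.67 and -0.63 after DSF. All 5-FU arrays lay above and all DSF arrays below the controls of their line. Of all probes 56.2% in Huh1 and 66.3% in Huh7 had no overlap for 5-FU, and 59.1% and 60.5% for DSF. The 5-FU rise was 2.26-fold in Huh1 (log2 1.18, SE 0.19, adjusted p = 0.000133) and 1.55-fold in Huh7 (log2 0.63, SE 0.19, adjusted p = 0.00948), and the difference between the lines was not called (-0.54, SE 0.26, adjusted p = 0.126). The Huh7 call was lost when only the groups compared were fitted (adjusted p = 0.0971). The DSF changes of -0.29 (SE 0.19, adjusted p = 0.224) and -0.16 (SE 0.19, adjusted p = 0.496) were not called.

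GLS2 was measured above background mainly in Huh1. There it read -5.94, -5.22 and -5.45 in controls, of which 1 of 3 was well above background, -5.26, -5.09 and -5.51 after DSF and -3.25, -2.91 and -2.87 after 5-FU, all well above it. The 5-FU arrays lay above all others of the line, where 56.2% of all probes had no overlap between 5-FU and control. In Huh7 it read -7.72, -7.97 and -8.06 in controls and -7.10, -7.02 and -8.14 after DSF, none of them well above background, and -7.97, -8.50 and -3.45 after 5-FU. The last reading, of replicate 3, was the only one well above background in this line, and its 2 spots read 11 and 2200 intensity units, a 201-fold gap. The 5-FU rise in Huh1 was 5.76-fold (log2 2.53), with SE 0.90 and an adjusted p of 0.0314 over all arrays, and SE 0.28 and an adjusted p of 8.09e-06 when that Huh7 array was dropped for this probe. With that array kept, leaving out any 1 of the Huh1 control or 5-FU arrays ended the call (2.32 to 2.69, adjusted p from 0.0509 to 0.084), and normexp background correction gave 1.02 (adjusted p = 0.0568). The Huh7 5-FU change was 1.28 (SE 0.90, adjusted p = 0.242) with the array and -0.32 (adjusted p = 0.407) without it. The DSF change in Huh1 was 0.25 (adjusted p = 0.847). No Huh7 control array gave more than a bound. Against that bound the mean of the Huh1 controls was 2.38-fold higher, but only 1 of 3 of these arrays was well above background. This difference was not called under several alternatives, given with the control groups below.

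**Figure D3:**
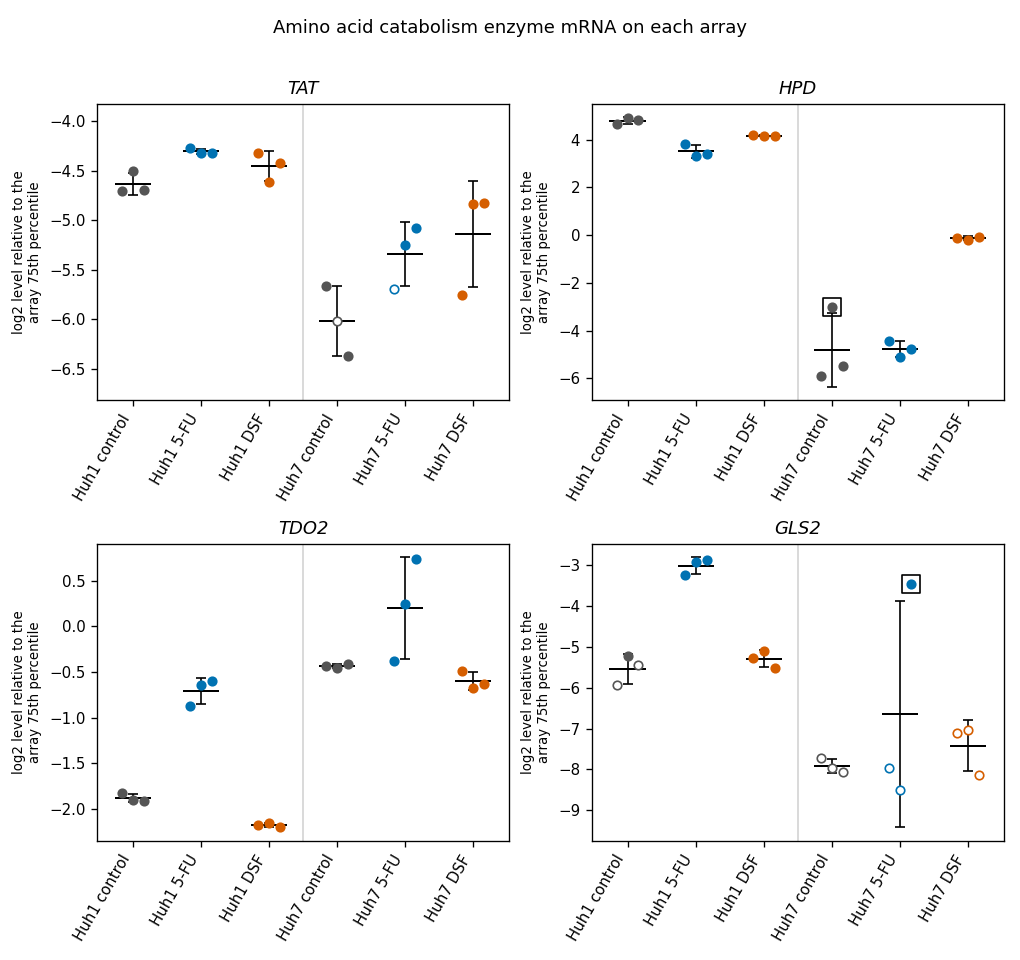
Log2 level relative to the 75th percentile of the array (y axis, a separate range for each gene) on every array of the 6 groups (x axis) for TAT, HPD, TDO2 and GLS2. Filled points were well above background and open points were not, horizontal lines are means and bars SD over 3 arrays, and the squares mark the HPD and GLS2 readings whose 2 spots differed by 78.2-fold and 201-fold.

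Of 538092 readings of tested probes, 224, or 0.0416%, had spots more than 8-fold apart with one of them well above background. The readings counted include probes with a single spot, which cannot show such a gap. Among the 9 genes, HPD and GLS2 held 1 each. At the other end, the 2 ASL spots agreed to a median of 1.01-fold.

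The drugs were also compared directly, which asks whether DSF and 5-FU left the enzymes at different levels. In Huh1, 6 of 9 genes were called, against 49.2% of all probes, and in Huh7 7 of 9, against 60.5%. The DSF minus 5-FU difference of OTC was -2.23 in Huh1 (SE 0.26, adjusted p = 7.87e-06) and -2.07 in Huh7 (SE 0.26, adjusted p = 8.83e-06). For ARG1 it was -1.82 (adjusted p = 0.000705) in the former line and -1.73 (adjusted p = 0.000736) in the latter, and for TDO2 -1.47 (adjusted p = 1.8e-05) and -0.80 (adjusted p = 0.00202). ASS1 was higher after DSF than after 5-FU in Huh7 by 1.43 (adjusted p = 2.63e-05), but by 0.28 (adjusted p = 0.207) with spike-in scaling. HPD was higher there by 4.64 (adjusted p = 2.41e-06). The GLS2 difference in Huh1 was -2.28 (adjusted p = 0.0487), a call lost without any 1 of the 6 arrays compared (-2.39 to -2.17, adjusted p from 0.0776 to 0.111), with no filter (adjusted p = 0.0663), with the replicate block (adjusted p = 0.0615) and with slide as a block (adjusted p = 0.124). ASL had opposite signs, at 0.45 in Huh1 (adjusted p = 0.00413) but -0.43 in Huh7 (adjusted p = 0.00425). With spike-in scaling the former was -0.24 (adjusted p = 0.152), and with median scaling 0.30 (adjusted p = 0.054). Of the calls over all probes 58.2% were higher after DSF in Huh1 and 58.8% in Huh7, against 6.79% and 3.33% with spike-in scaling and 40.7% in Huh1 with median scaling. Without 5-FU replicate 1 the Huh7 CPS1 difference missed the threshold (0.40, adjusted p = 0.0703). With slide as a block, the Huh7 calls of CPS1, ASL and TDO2 were lost and the count was 4 of 9.

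Between the control groups, 8 of 9 genes were called, against 70.7% of all probes, 7 of them lower in Huh7. Of all probes 36.2% were lower in Huh7. Beside CPS1, HPD and GLS2, described above, OTC was lower in Huh7 by 3.17-fold, ASS1 by 1.84-fold, ASL by 2.08-fold and TAT by 2.61-fold, and TDO2 was higher by 2.73-fold, with adjusted p between 7.89e-07 and 0.00119. ARG1 did not pass the test (0.58, adjusted p = 0.158), although its groups did not overlap, as for 77.2% of all probes. The controls of the lines were hybridised on different slides, so line and slide cannot be told apart here except through the DSF arrays. With slide as a block, fitted through those arrays, the ASS1 (adjusted p = 0.0692) and GLS2 (-2.05, adjusted p = 0.342) calls were lost and the count was 6 of 9. The GLS2 call was also lost with normexp correction (-0.58, adjusted p = 0.257) and without Huh1 control replicate 2 or 3 or Huh7 control replicate 2 or 3 (-2.36 to -2.22, adjusted p from 0.0605 to 0.073).

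Whether the lines responded differently was tested with the difference of their effects. For DSF 2 of 9 genes were called, CPS1 and HPD, against 40.3% of all probes. For 5-FU 4 of 9 were called, CPS1, ASS1, ASL and ARG1, against 36.6%. The ARG1 difference for 5-FU was -1.39 (SE 0.50, adjusted p = 0.0424), and it missed the threshold without Huh1 5-FU replicate 1 (-0.93, adjusted p = 0.0801), Huh7 5-FU replicate 1 (-0.97, adjusted p = 0.0944) or any 1 of the 6 control arrays (-1.48 to -1.25, adjusted p from 0.0522 to 0.0901). It also missed it with slide as a block (adjusted p = 0.0605), the replicate block (adjusted p = 0.0653), no filter (adjusted p = 0.062), median scaling (-1.34, adjusted p = 0.0551), spike-in scaling (-1.24, adjusted p = 0.067) and only the groups compared (adjusted p = 0.0986), each of which left 3 of 9. The share of calls over all probes that were higher in Huh7 was 52.3% for DSF, with 68.5% under median and 16.7% under spike-in scaling, and 51.3% for 5-FU, with 65.6% under spike-in scaling.

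In a wider list of 83 genes of nitrogen and amino acid metabolism, 81 were tested, and more were lower than higher in every comparison with control. DSF gave 43 lower and 7 higher in Huh1 and 33 lower and 13 higher in Huh7, with median changes of -0.43 and -0.12. The 5-FU counts were 40 and 14 in Huh1, which include IDO2 among the lower although neither group was above background there, and 41 and 15 in Huh7, with medians of -0.32 and -0.45. Of all probes 20.3%, 19.4%, 26% and 29.7% were called lower in these 4 comparisons, and 23.9%, 27.3%, 22.2% and 27.3% higher. The 5-FU direction held only relative to the bulk of probes: with spike-in scaling 43 genes rose and 3 fell in Huh1, while Huh7 had 47 and 5.

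Of the other 5 genes around the urea cycle, DSF raised 1 and lowered 2 in Huh1 and raised 2 and lowered 1 in Huh7, and 5-FU raised 2 and lowered 2 in Huh1 and raised 1 and lowered 2 in Huh7. SLC25A15, the mitochondrial ornithine carrier, was lower after DSF in Huh1 (-0.62) and after 5-FU in both lines (-0.87 and -0.88). ARG2, the mitochondrial arginase, was higher in Huh1 after DSF (0.76) and 5-FU (1.11). Of 8 further phenylalanine and tyrosine genes 6 were lower and 1 higher after DSF in Huh1, against 2 and 1 in Huh7. Of 8 tested tryptophan and kynurenine genes 4 were lower and 0 higher after DSF in Huh1, 3 and 3 in Huh7, and 5 were higher and 0 lower after 5-FU in Huh7. The shares of all probes called lower and higher in these comparisons are those given above with the wider list.

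The branched-chain group holds genes for the breakdown of leucine, isoleucine and valine and for its control (the kinase gene BCKDK). It was called lower in 12 of 21 genes after DSF in Huh1 and 10 of 21 in Huh7. After 5-FU the counts were 16 and 18 of 21. In these 4 comparisons 20.3%, 19.4%, 26% and 29.7% of all probes were called lower. With spike-in scaling the 5-FU counts were 1 and 3 lower and 7 and 5 higher. The DSF and 5-FU comparisons of a line share their control arrays. In the wider list 9 genes were called lower in all 4 comparisons and 0 higher, beside 2.93% and 3.85% of all probes. They were DBT, BCKDK, ACADSB, HIBADH and MCEE of the branched-chain group, GPT, the alanine aminotransferase, AHCY and CBS of methionine breakdown, and ALDH7A1 of lysine breakdown. Across the 4 comparisons the log2 changes ran from -1.31 to -0.77 for HIBADH and from -1.84 to -0.63 for GPT. With spike-in scaling none of the 9 was called lower after 5-FU in either line, and GPT, AHCY, CBS and ALDH7A1 were called higher in Huh7. With slide as a block the DSF calls in Huh7 were lost for AHCY (adjusted p = 0.149), CBS (adjusted p = 0.0979) and ACADSB (adjusted p = 0.275), and quantile scaling ended the 5-FU calls of CBS (adjusted p = 0.271 in Huh1 and 0.876 in Huh7).

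**Figure D4:**
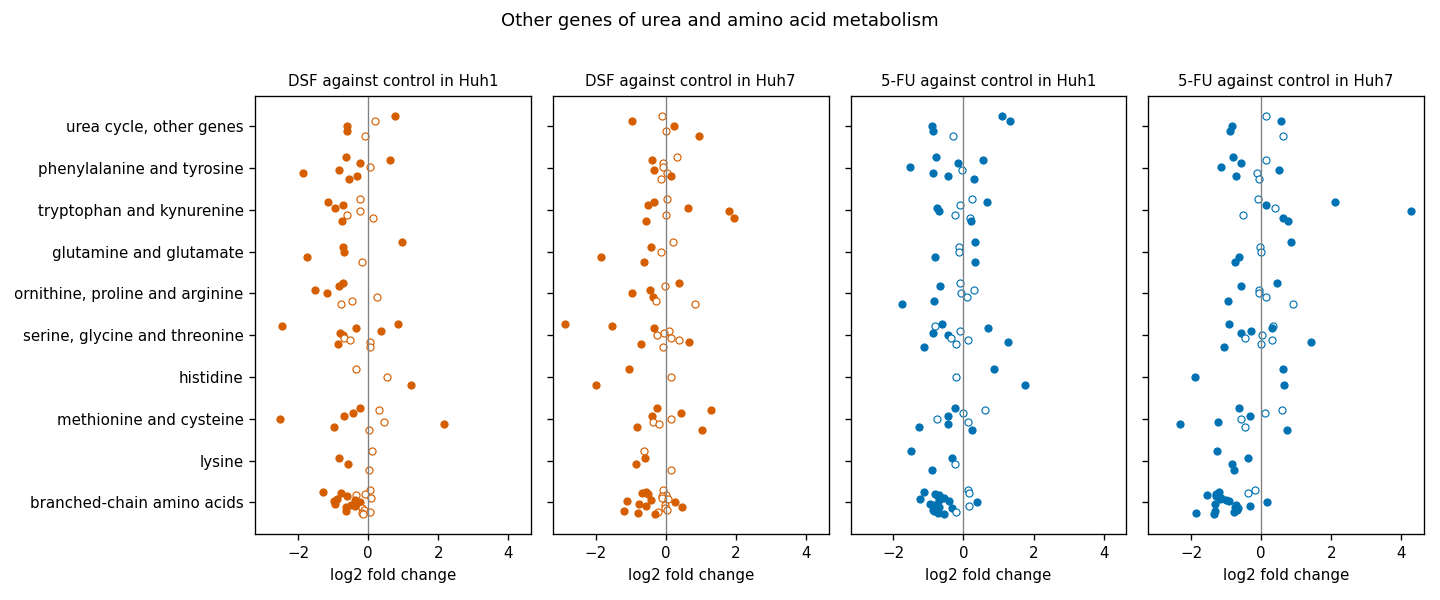
Log2 fold change against control (x axis) of the 81 tested genes of the wider list, grouped by pathway (y axis, 1 point per gene, spread vertically for clarity), in 4 panels for DSF and 5-FU in Huh1 and Huh7. Filled points had an adjusted p below 0.05. Most branched-chain genes lie left of 0 in the 5-FU panels, and the point furthest right is IDO2 after 5-FU in Huh7.

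Single genes moved further. After DSF in Huh1, CTH, which makes cysteine from cystathionine, rose by 2.17 (SE 0.14, adjusted p = 3.37e-08), and HAL, the histidine ammonia lyase, by 1.21, while CDO1, which oxidises cysteine, fell by 2.51 and AGXT2, a mitochondrial aminotransferase, at least 2.82-fold, with 1 of 3 control arrays above background. After DSF in Huh7, KYNU of the kynurenine route rose by 1.95 (SE 0.12, adjusted p = 2.71e-08), and IDO2 and BHMT rose at least 1.61-fold and 1.36-fold from controls that were not above background, each measured on 2 of 3 DSF arrays. With slide as a block the BHMT call was lost (adjusted p = 0.146). AGXT, a peroxisomal aminotransferase, fell by 2.87 there (SE 0.22, adjusted p = 2.2e-07), HAL by 1.99 and GPT by 1.84. HAL and AGXT changed in opposite directions in the lines, AGXT by 0.84 in Huh1, and the effects differed by -3.20 for HAL (SE 0.30, adjusted p = 2.49e-06) and -3.71 for AGXT (SE 0.31, adjusted p = 1.03e-06).

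After 5-FU in Huh1, HAL rose by 1.75, NAGS, which makes the activator of CPS1, by 1.33 (SE 0.13, adjusted p = 2.23e-06) and SDSL, a serine dehydratase-like enzyme, by 1.28, while PRODH2, GSTZ1 of tyrosine breakdown and AASS of lysine breakdown fell by 1.75, 1.53 and 1.51. After 5-FU in Huh7, IDO2 rose at least 8.94-fold, on 3 of 3 arrays, ACMSD, which acts further along the kynurenine route, by 2.11 (SE 0.13, adjusted p = 6.54e-09) and SDSL by 1.42, while CTH fell by 2.32 (SE 0.14, adjusted p = 6.35e-09), FTCD of histidine breakdown by 1.89 and PCCA, a propionyl-CoA carboxylase subunit, by 1.85.

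Genes for transcriptional regulators of liver genes were read beside the enzymes, and whether each acts on these promoters was not tested. HNF4A was lower after DSF, with a change of -0.90 in Huh1 (SE 0.09, adjusted p = 2.23e-06). In Huh7 it changed by -0.67 (SE 0.09, adjusted p = 3.37e-05). CEBPA was lower after DSF in Huh1 (-1.26, adjusted p = 7.65e-06), while its Huh7 value was -0.12 (adjusted p = 0.505). PPARGC1A was higher after DSF in Huh7 (0.90, adjusted p = 0.00935) and after 5-FU in Huh1 (1.24, adjusted p = 0.000966) and Huh7 (0.71, adjusted p = 0.0257). With spike-in scaling the DSF call of PPARGC1A was lost. In all, 7 of 10 such genes were called lower and 1 higher after DSF in Huh1, and 3 lower and 3 higher in Huh7. Of all probes 20.3% were called lower and 23.9% higher in Huh1, and 19.4% lower and 27.3% higher in Huh7. Their part in the enzyme changes was not tested.

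Cell markers moved with the same groups. The 8 hepatocyte markers include HNF4A, also named above, and AFP, which the paper treats as a marker of hepatic stem or progenitor cells. After DSF all 8 were called lower in Huh1, beside 20.3% of all probes. In Huh7 it was 5 of 8, beside 19.4%. Their summed level, on the linear scale relative to the 75th percentile, was 640 to 694 in Huh1 controls against 475 to 515 after DSF. The Huh7 sums were 952 to 982 in controls against 766 to 880. With 5-FU, 3 of these markers rose and 3 fell among the Huh1 calls, and the sums ran from 568 to 697. The Huh7 calls with 5-FU were 4 rises against 3 falls, with sums from 1020 to 1130. Of all probes 22.2% were called higher and 26% lower with 5-FU in Huh1, and 27.3% and 29.7% in Huh7. Spike-in scaling turned all 8 to higher calls after 5-FU in each line. EPCAM changed after DSF by -0.66 in Huh1 (adjusted p = 0.00633) and by -0.50 in Huh7 (adjusted p = 0.0294), with 0.39 (adjusted p = 0.0764) and 0.25 (adjusted p = 0.239) after 5-FU. With spike-in scaling EPCAM was called higher after 5-FU in both lines (1.22 and 1.23) and the DSF call in Huh1 was lost (-0.52), and it was also called higher after 5-FU in Huh7 with quantile scaling (0.58) and in Huh1 with normexp correction (0.41). The 3 cholangiocyte markers KRT7, KRT19 and SOX9 were called higher in Huh1 in 3 of 3 after each drug. Of all probes 23.9% were called higher there after DSF and 22.2% after 5-FU. The summed level of these markers in Huh1 was 30.3 to 60.5 in controls, 82.1 to 85.6 after DSF and 56.5 to 73.6 after 5-FU. In Huh7 0 of 3 were called higher, beside 27.3% of all probes for each drug. SOX9 was lower there after DSF, and spike-in scaling gave 3 of 3 higher after 5-FU. In Huh7 their sum was 62.1 to 67.1 in controls, 62.5 to 64 after DSF and 58.6 to 147 after 5-FU. Of 3 fibroblast markers, COL1A1, COL3A1 and PDGFRB, 2 were not above background in Huh1 or Huh7 controls, and their sum reached at most 0.156 on any array. The 3 endothelial markers summed to between 0.25 and 0.621 and the 3 leukocyte markers to between 0.412 and 2.06. The part of these shifts in the enzyme changes was not tested.

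The genes whose levels followed CPS1 most closely over the 18 arrays were HAMP, the hepcidin gene, and ZNF512B, both with a Pearson r of 0.996, out of 15842 genes. For OTC they were SERPINF2, the antiplasmin gene (0.987), and RAB42 (0.981), and for ARG1 TWF2 (0.957) and VASH2 (0.943). ASS1 was followed by RNF13 (0.982) and ACAT1, a mitochondrial acetyl-CoA acetyltransferase (0.973), and ASL by GNPAT (0.933) and IGF2BP3 (0.927). Next to HPD stood TP53TG3C and PSEN2 (both 0.988), next to TAT EFNA5 (0.939) and SYDE1 (0.927), next to TDO2 VPREB3 (0.969) and CEP19 (0.962), and next to GLS2 PCDHGB6 (0.920) and RIPOR2 (0.907). Among the 9 genes, CPS1 and HPD were the most alike (0.933) and HPD and TDO2 the least (-0.813). These values describe 18 arrays that share their 6 groups, and they pool both lines. They thus include the gap between the lines. For CPS1 and HPD that gap in the controls (log2 -8.52 and -9.61) was wider than any change with a drug.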

How the data were processed

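Total RNA of sorted EpCAM+ cells was labelled with Cy3 and hybridised to 60K Agilent human gene expression arrays. The study's methods describe triplicates from independent experiments, while the labels give only replicate numbers, which were not used to pair samples. The deposited scanner files hold spot intensity, with the background-corrected processed signal, made by the authors with Agilent Feature Extraction 10.7.1.1 per the submitters' processing notes. The deposited table of the series holds, per array, the ratio of the linear signal to the array's 75th percentile, made by the authors in GeneSpring. It matched the values computed here within 0.00965 on the log2 scale and served as an alternative. Control spots and outlier spots (316 to 447 per array) were left out, as were 78 of 42405 probes with no spot left on some array, spots of a probe were averaged, and log2 processed intensity was centred on each array's 75th percentile, which ran from 10.098 to 10.839. The number of arrays limits the precision. Probes were named through their RefSeq accession, with 25771 of 27134 such probes matched.

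Probes were tested with limma 3.58.1 in R 4.3.3, with all 18 arrays in 1 fit of 6 groups and Benjamini-Hochberg adjustment at 0.05. The same steps were tested on simulated data. For a gene with several probes the one with the highest mean level was used, and ASS1 and ARG1 are given with both. An "at least" fold sets the mean of the brighter group against the lowest signal that counted as well above background on each array of the dimmer one. The alternatives were quantile, median and spike-in scaling, normexp background correction with an offset of 50 on the median signal and median background (the files used here hold no mean signal, which had been planned), the deposited values, no filter or a stricter one, all spots, the mean of a gene's probes, only the groups compared, the replicate number or the slide as a block, a trend in the prior variance and leaving out each array. A further one, chosen after seeing the data, left out for a probe the arrays on which its spots differed by over 8-fold. The arrays lay on 3 slides. Slide 1 held Huh1 controls, 5-FU and 2 DSF arrays, slide 2 the third Huh1 DSF array with Huh7 controls, 5-FU and 1 DSF array, and slide 3 the other Huh7 DSF arrays.

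The 9 genes and all lists were chosen with earlier results of these data known. Named were the 9 genes, the genes of the wider list called in 1 direction in all 4 comparisons with control, the 3 with the largest rise and fall in each (some of which are not reported here), the genes most correlated with each of the 9 over the arrays, EPCAM and the markers. SLC25A15, ARG2 and the transcriptional regulators fall outside that rule and were chosen after their values were seen. Promoters are the RefSeq sequences of GRCh38.p14, read with Python 3.11.15.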

Additional observations from a re-analysis of the deposited data

Results flagged for a closer look

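In 6 tests the effect of a drug differed between Huh7 and Huh1 at an adjusted p below 0.05 in limma, given here as Huh7 minus Huh1 on the log2 scale. These were 2 of 9 genes for DSF and 4 of 9 for 5-FU, beside 40.3% and 36.6% of all probes. For DSF these were CPS1 (2.58), which fell in Huh1 and rose in Huh7, and HPD (5.31), which rose in Huh7. For 5-FU they were CPS1 (1.12), again with opposite signs, ASS1 (-1.42), which fell further in Huh7, ASL (1.25), which fell in Huh1, and ARG1 (-1.39), which fell in Huh7. With spike-in scaling the Huh1 5-FU values of CPS1 and ASS1 were 0.25 and 0.12, so the signs of CPS1 then no longer differed. The ARG1 difference missed the threshold with slide as a block (adjusted p = 0.0605), with the replicate block (adjusted p = 0.0653) and without any 1 of 8 arrays, as given above. Over every alternative run, leave-outs included, the DSF difference of CPS1 lay between 2.21 and 2.73 and that of HPD between 3.71 and 6.20, all called.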

How the results depend on the processing

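For 36 values of the 9 genes against control, 14 alternatives that keep all arrays, the leave-outs and the DSF differences within a slide were run. Of their results 656 were counted as the same, 37 as weaker, 11 as stronger and 20 had the sign turned. The other 6, within-slide values in Huh7, shifted by more than the SD between replicates. The same means an equal direction and side of the threshold. Within-slide values have no test, and for them it means a shift smaller than that SD. The count of genes called shifted by over 1.5 times for 5-FU in Huh7 with only the groups compared (3, from 5), for DSF against 5-FU in Huh7 with slide as a block (4, from 7) and for the difference of DSF effects with quantile scaling (4, from 2), median scaling (4) and only the groups compared (4). Smaller shifts were to 4 for 5-FU in Huh1 with quantile scaling, 7 for 5-FU in Huh7 with spike-in scaling, and 5 for DSF in Huh7 and 6 between the controls with slide as a block. Leaving out 1 array gave 3 to 4 genes for 5-FU in Huh1 (from 6) and 3 to 5 for 5-FU in Huh7. Reversed against control were, with quantile scaling, TAT (-0.0526) and GLS2 (-0.0642) after DSF in Huh1, and with normexp GLS2 there (-0.0489), TAT after 5-FU in Huh1 (-0.13) and Huh7 (-0.15) and HPD after 5-FU in Huh7 (-0.54). With spike-in scaling CPS1 (0.25), ASS1 (0.12) and ARG1 (0.66) after 5-FU in Huh1 and ASL (0.89) in Huh7 reversed. The leave-outs ran for 5-FU in Huh1 from -0.18 to 0.45 for OTC and -0.64 to 0.0646 for ARG1, and in Huh7 from -0.12 to 0.14 for OTC, -0.18 to 0.0087 for ASL, -0.52 to 0.92 for HPD and -0.32 to 2.21 for GLS2, which was -0.32 also with discordant spots left out. The cause was not tested. Deviations of same-numbered arrays from their group means correlated with r of -0.093 to 0.0092, so no shared shift was seen. This cannot show whether the samples were paired. The replicate block gave 5 genes for DSF in Huh1 and 7 in Huh7. For 5-FU it gave 5 in Huh1, where HPD was lost (adjusted p = 0.0613), and 5 in Huh7. Signals near background limit TAT, GLS2 and Huh7 HPD.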
